A study of Mus musculus with 26 samples.

Results

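The genes followed here are 9 transcripts associated with double-positive (DP) thymocytes around the start of positive selection: Rag1, Rag2, Dntt, Arpp21, Tdrd5, Spo11, Plxnd1, Ets2 and Cd1d1. They were chosen by gene symbol, with earlier results of these data known, and each matched 1 of the 46517 symbols in the deposited table. All 9 were among the 16372 symbols with a normalised read count of at least 10 in at least 2 libraries, which were the symbols tested.

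The series used bulk RNA sequencing of sorted thymocytes to follow CD8 T cell positive selection in 3 T cell receptor (TCR) transgenic mouse lines that differ in self-reactivity. Self-reactivity is lowest in TG6, intermediate in F5 and highest in OT-1. Early positive selection was sorted as CD4+CD8+CXCR4+CCR7-, late positive selection as CD4+CD8+CXCR4-CCR7+, and mature CD8SP as CD4-CD8+CXCR4-CCR7+. Each of the 9 combinations of line and stage had 3 biological replicates, except TG6 at late positive selection with 2. TG6 mice carried the TG6 TCR transgene and H2b/d on a C57/BL6 x B6.C-H2d/bByJ background. F5 mice (F5tg Rag1KO) and OT-1 mice (OT-1tg Rag2KO) were both labelled C57/BL6. All 3 lines expressed rearranged TCR chains from a transgene, and no line with an unrearranged repertoire was analysed here. No library of cells before positive selection was analysed here, and the study's methods give a range of ages in weeks for its mice as a whole but no age for each library. Because F5 lacks functional Rag1, OT-1 lacks functional Rag2 and TG6 carries no Rag deletion in its label, the line, the MHC background and the Rag genotype cannot be told apart in any comparison between lines.

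Rag1 and Rag2 encode the recombinase that cuts antigen receptor gene segments, and Dntt encodes terminal deoxynucleotidyl transferase (TdT), which adds untemplated bases at the joints. DP thymocytes use these enzymes to rearrange the TCR alpha locus until a selecting TCR signal ends recombination, and the program is then shut off as the cells become single positive. Spo11 and Tdrd5 are best known from germ cells, Spo11 as the nuclease that makes meiotic double-strand breaks and Tdrd5 as a tudor-domain protein of the piRNA pathway. Arpp21 encodes an RNA-binding phosphoprotein, Plxnd1 the semaphorin receptor plexin D1, Ets2 a transcription factor of the ETS family, and Cd1d1 the CD1d molecule with which DP thymocytes present lipids to natural killer T cells.

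The promoter windows of the recombination genes are printed first, because the first results turn on Rag1, Rag2 and Dntt, and that of Tdrd5 is printed as a contrast. They run from 250 bases before to 50 bases after the start of the RefSeq transcript on GRCm38.p6, the mm10 assembly, in the direction of transcription. Capitals mark E-boxes, the letters CANNTG, which are bound by E proteins as a class. Of the 9 genes, 7 had such a window, and Spo11 and Cd1d1 had none. The windows lie at chr2:101649483-101649782 on the minus strand for Rag1, chr2:101624462-101624761 on the plus strand for Rag2, chr19:41029025-41029324 on the plus strand for Dntt and chr1:156303299-156303598 on the minus strand for Tdrd5.
Rag1: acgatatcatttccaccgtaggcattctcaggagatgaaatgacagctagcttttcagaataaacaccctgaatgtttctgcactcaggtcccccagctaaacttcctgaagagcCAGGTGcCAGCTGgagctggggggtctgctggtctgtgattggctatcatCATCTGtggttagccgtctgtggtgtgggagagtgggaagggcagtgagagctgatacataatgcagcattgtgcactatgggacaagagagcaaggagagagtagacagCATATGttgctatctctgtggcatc
Rag2: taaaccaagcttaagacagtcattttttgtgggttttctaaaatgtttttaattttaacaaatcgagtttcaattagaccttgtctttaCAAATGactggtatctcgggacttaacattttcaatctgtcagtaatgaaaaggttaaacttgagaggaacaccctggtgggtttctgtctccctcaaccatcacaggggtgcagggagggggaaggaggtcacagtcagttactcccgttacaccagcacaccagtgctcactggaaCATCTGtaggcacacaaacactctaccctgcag
Dntt: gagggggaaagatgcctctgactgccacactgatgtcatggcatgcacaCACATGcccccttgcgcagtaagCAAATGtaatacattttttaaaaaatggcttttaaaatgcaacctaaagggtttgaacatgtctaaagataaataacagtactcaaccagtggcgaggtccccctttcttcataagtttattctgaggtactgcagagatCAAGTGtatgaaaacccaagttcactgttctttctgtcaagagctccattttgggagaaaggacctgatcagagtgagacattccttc
Tdrd5: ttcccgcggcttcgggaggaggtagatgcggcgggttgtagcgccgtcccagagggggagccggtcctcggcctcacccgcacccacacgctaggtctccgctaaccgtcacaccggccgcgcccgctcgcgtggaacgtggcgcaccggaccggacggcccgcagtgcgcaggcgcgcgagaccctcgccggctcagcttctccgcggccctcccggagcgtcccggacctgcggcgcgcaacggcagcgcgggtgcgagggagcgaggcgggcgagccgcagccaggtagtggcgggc
The Rag1 window held 4 E-boxes, of which the outermost began 135 bases before the start, followed by 1 at 128. The Rag2 window held 2 E-boxes and the Dntt window 3. Of all 32851 windows, 72.3% held at least 1 E-box on either strand. The form CAGGTG, that of the outermost Rag1 E-box, was held by 20.2% of windows. The windows of Tdrd5, Plxnd1 and Ets2 held no E-box. These were also the GC-rich ones, at 76.0, 67.0 and 71.7% G or C, against 50, 43.0 and 42.3% for Rag1, Rag2 and Dntt and a median of 52.7% over all windows. The Rag1 window held TGTGGT, the RUNX motif, at 2 places, a motif found in 16.8% of windows.

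The gene positions below are from GENCODE vM21 on the same assembly, and each is given as the whole gene. Rag1 spans chromosome 2, 101638282 to 101649501 on the minus strand, and Rag2 chromosome 2, 101624718 to 101632529 on the plus strand. Dntt spans chromosome 19, 41029275 to 41059525 (plus), Arpp21 chromosome 9, 112065091 to 112235938 (minus), and Tdrd5 chromosome 1, 156255296 to 156303664 (minus). Spo11 spans chromosome 2, 172977700 to 172993576 (plus), far from the Rag genes. Plxnd1 spans chromosome 6, 115954811 to 115995005 (minus), Ets2 chromosome 16, 95702075 to 95721051 (plus), and Cd1d1 chromosome 3, 86995834 to 86999441 (minus).

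The libraries had similar totals, 16134786 to 18944173 normalised reads (median 17159756), and libraries of the same group correlated at r = 0.95 to 0.978 over the symbols tested, while the highest correlation between libraries of different groups was 0.961. TG6 mature CD8SP replicate 3 stood apart from its group in Rag1, Rag2, Dntt and Arpp21, and F5 late positive selection replicate 2 in Rag1 and Rag2, so the calls that leaving them out changed are given with and without them. In TG6 mature CD8SP replicate 3 the summed level of the double-negative markers Il2ra, Kit and Hes1 was 2178, against 272 and 281 in the other replicates, with none of them at 0. Cd4, chosen after its values were seen, was 461 there and 129 and 77.1 in the others. Over all libraries the summed markers of other cell types stayed low, at 121 to 336 for B cells (6 genes), 93.3 to 349 for myeloid cells (6 genes), 24.5 to 76.0 for thymic epithelium (5 genes) and 20.3 to 821 for erythroid cells (5 genes).

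All 9 genes were lower at mature CD8SP than at early positive selection in TG6. Their median log2 difference was -3.24, against -0.03 over all symbols tested. In TG6 9 of the 9 were called lower by limma at an adjusted p under 0.05 (15.2% of the symbols tested were called lower), in F5 7 of 9 (8.79%) and in OT-1 8 of 9 (10.5%). Tdrd5 did not pass in F5 or OT-1, and Cd1d1 did not pass in F5 unless the replicate number was a block (adjusted p = 0.013), which made the F5 count 8. The 8.79% of symbols is from the fit without the block and is not the background of that count. Without F5 mature CD8SP replicate 1 the F5 count was 4, since Rag1, Rag2, Dntt and Arpp21 no longer passed (limma, adjusted p = 0.076, 0.14, 0.071 and 0.10) while Cd1d1 now did (adjusted p = 0.041). The values at late positive selection divided the genes. Rag1, Rag2, Dntt, Arpp21, Plxnd1 and Ets2 were called lower from early to late positive selection in all 3 lines, whereas Tdrd5 and Cd1d1 were called lower in none and Spo11 in TG6 and OT-1. The F5 call of Ets2 was the least secure of these, being lost in 5 of 6 fits that left out 1 library. This made 7 of 9 called lower in TG6 (13.3% of symbols), 6 of 9 in F5 (14.0%) and 7 of 9 in OT-1 (14.0%).

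**Figure D1:**
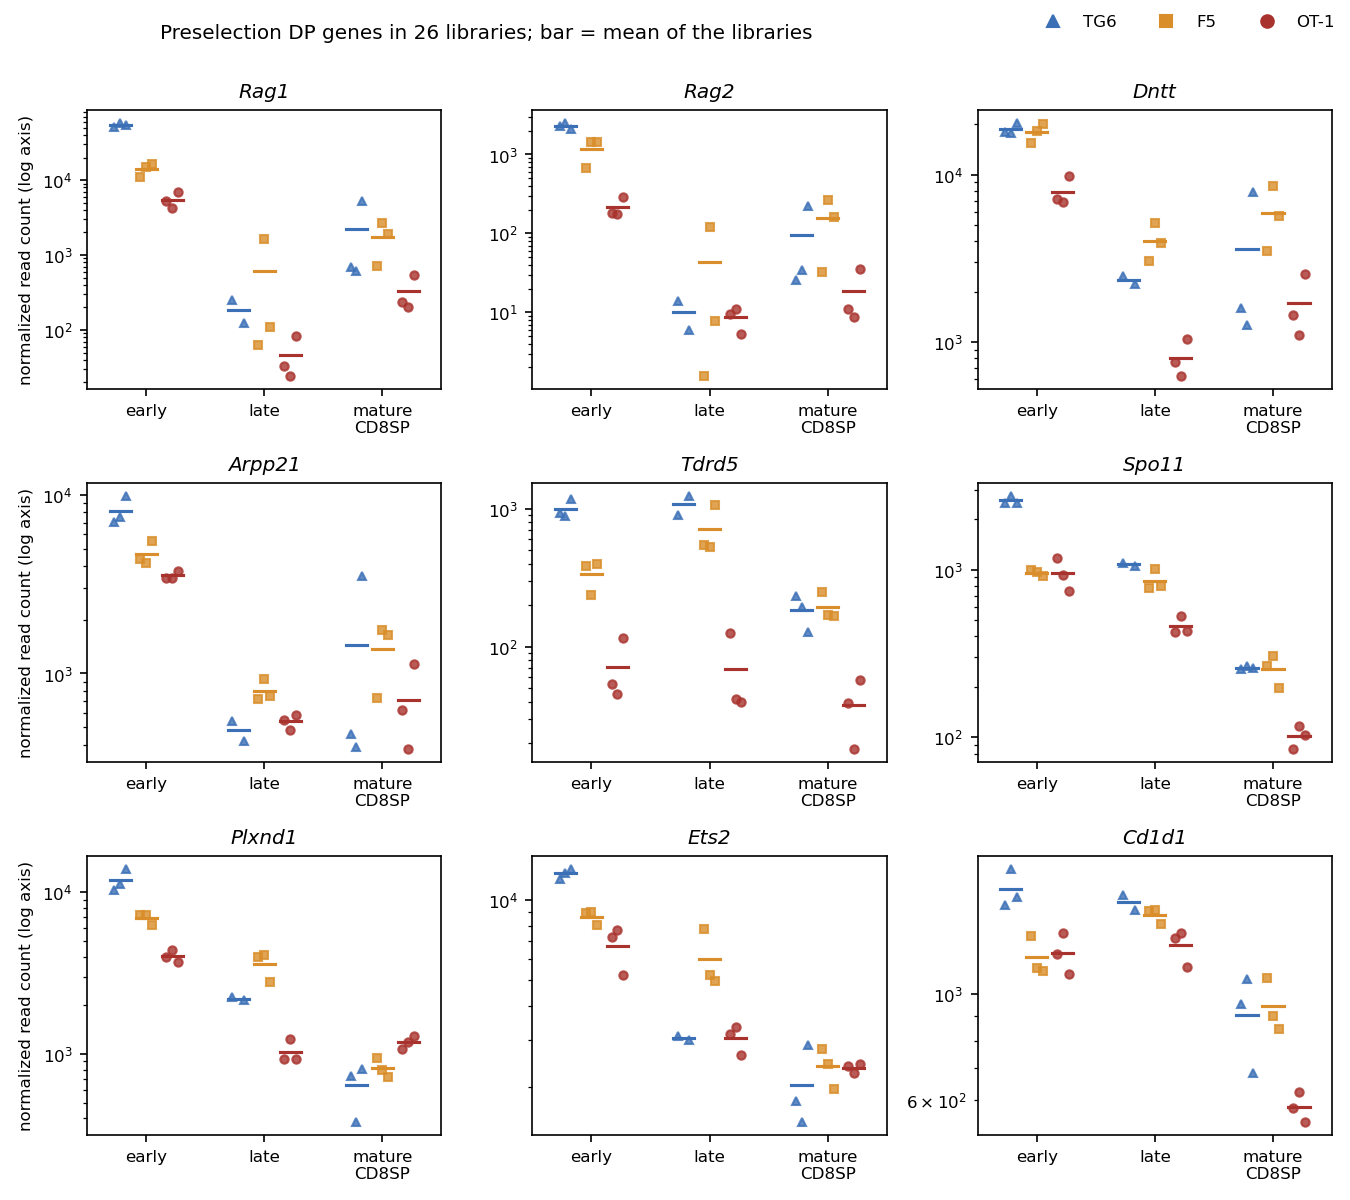
Normalised read count (log axis) of each of the 9 genes in the 26 libraries, by stage and line; points are libraries and bars are the mean of a group's libraries. Rag1 in the 3 TG6 libraries at early positive selection lies between 51114 and 58364, above all other libraries, while Tdrd5 keeps its early level at late positive selection in TG6, at 905 and 1243.

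From early to late positive selection Rag1 had the steepest fall of the 9 genes in TG6 and OT-1, and Rag2 in F5. In TG6 Rag1 stood at 51114, 58364 and 54448 normalised reads at early positive selection, at 249 and 124 at late positive selection, and at 696, 619.9 and 5265 in mature CD8SP. The groups did not overlap between early and late, and the mean at late positive selection was 0.341% of the early mean. The log2 difference was -8.27 ± 0.98 (SE, limma, adjusted p = 1.5e-06). In F5 the libraries held 10835, 15149 and 16266 early, 62.3, 1658 and 109 late and 704, 2698 and 1896 at the mature stage. Its late level was 4.33% of the early level with replicate 2, which was 15.2 times the next replicate, and 0.608% without it. In OT-1 Rag1 stood at 5183, 4303 and 6987 early, 33.1, 24.1 and 82.1 late and 233.5, 202.5 and 545 at the mature stage. The OT-1 fall was -7.02 ± 0.88 and the F5 fall -5.94 ± 0.88 (limma, adjusted p = 6.3e-06 and 2.6e-05). Without F5 late positive selection replicate 2 the F5 fall was -7.38 (adjusted p = 1.3e-07).

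Rag2 also fell steeply from early to late positive selection in each line, from a lower level than Rag1. In TG6 Rag2 stood at 2322, 2529 and 2074 early, 14.0 and 5.95 late and 25.8, 34.5 and 224 at the mature stage. In F5 it stood at 669, 1434 and 1448, then 1.54, 122 and 7.71, then 32.2, 269 and 162. In OT-1 it stood at 183, 176 and 291, then 9.39, 11.1 and 5.37, then 10.9, 8.64 and 35.9. Every early library lay above every late library of its line. The falls to late positive selection were -7.82 ± 1.12 in TG6, -6.32 ± 1.00 in F5 and -4.51 ± 1.00 in OT-1 (limma, adjusted p = 1.4e-05, 5.7e-05 and 0.0018), and the F5 fall was -7.89 without F5 late positive selection replicate 2 (adjusted p = 5.1e-07). Late Rag2 was near the floor of the assay in most libraries, and there its log2 values depend on few reads.

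The ratio of Rag1 to Rag2 stayed within 22.0 to 26.3 across TG6 early libraries and 24.0 to 28.4 across OT-1 early libraries. In F5, the Rag1-deficient line, it was 10.6 to 16.2. All 3 F5 early ratios were thus below every early ratio of the other lines. In OT-1 late libraries, where both genes were low, the ratio was 2.17 to 15.3. The rows of the table sum reads over a whole gene, so they cannot separate reads of a disrupted allele from reads of an intact one, and the Rag1 values of F5 and Rag2 values of OT-1 are levels of RNA assigned to the locus. They are not a check of the deletion. Comparisons of Rag1 in F5 and Rag2 in OT-1 with the other lines cannot be told apart from an effect of the altered allele on its RNA.

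Rag1 was higher in mature CD8SP than at late positive selection in each line. The log2 rise was 2.90 ± 0.98 in TG6, 2.76 ± 0.88 in F5 and 2.84 ± 0.88 in OT-1 (limma, adjusted p = 0.038, 0.029 and 0.022). Rag1 was the only gene of the 9 called higher in TG6 (14.5% of symbols were called higher) and in OT-1 (14.0%), and in F5 it was joined by Rag2 (12.2%), which rose by 3.02 ± 1.00 (adjusted p = 0.036). In OT-1 the late and mature Rag2 libraries overlapped and differed by 0.80 ± 1.00 (adjusted p = 0.60). These calls were fragile. Without TG6 mature CD8SP replicate 3 the TG6 rise of Rag1 was 1.90 (limma, adjusted p = 0.20), and leaving out either TG6 late replicate also ended the call. Without OT-1 mature CD8SP replicate 3 the OT-1 rise was 2.40 (limma, adjusted p = 0.096), and without OT-1 late replicate 1 or 2 it was 2.70 or 2.48 (adjusted p = 0.067 and 0.092). Without F5 late positive selection replicate 2 the F5 rises became larger, 4.20 for Rag1 and 4.59 for Rag2 (adjusted p = 0.00022 and 0.00050). Leaving out F5 late replicate 1 or 3, or F5 mature replicate 2 or 3, took both F5 calls away, with rises of 1.84 to 2.61 for Rag1. In bulk RNA fewer cells of a type and less RNA per cell cannot be told apart, so in any of these populations a small share of cells with a high level looks the same as a low level in all cells.

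Between lines, Rag1 and Rag2 were ordered TG6, F5, OT-1 at early positive selection, with no overlap between any pair of lines for either gene. Mean Rag1 was 54642 ± 3629 in TG6, 14083 ± 2868 in F5 and 5491 ± 1368 in OT-1 (SD, n = 3 each), so the TG6 mean was 9.95 times that of OT-1. The OT-1 against TG6 difference was called for both genes, at -3.34 ± 0.88 for Rag1 and -3.44 ± 1.00 for Rag2 (limma, adjusted p = 0.0070 and 0.013). F5 against TG6 was -1.98 ± 0.88 for Rag1 (adjusted p = 0.22), which did not pass with the limma spread pooled over all 9 groups. When only these 2 groups were fitted, the same difference passed (limma, adjusted p = 0.0020). With the pooled spread, Rag2 in F5 against TG6 and both genes in OT-1 against F5 were not called either. They passed in no fit that left out 1 library. The lowest adjusted p (limma) was then 0.65 for Rag2 in F5 against TG6. In OT-1 against F5 it was 0.35 for Rag1 and 0.12 for Rag2. The pooled spread of Rag1 was wide because of the late and mature libraries: its within-group SD was 1.201 on the log2 scale, larger than that of 95.6% of symbols tested. In the late libraries OT-1 against F5 was -2.45 ± 0.88 for Rag1 (adjusted p = 0.047), and without F5 late positive selection replicate 2 it was -1.01 (adjusted p = 0.36).

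The genes around Rag1 and Rag2 did not fall as a block. Rag2 starts 24783 bases from the start of Rag1, on the opposite strand. Traf6, a signalling adaptor gene whose start lies 28928 bases on the other side, fell by 0.65 ± 0.17 in TG6 from early to late positive selection (limma, adjusted p = 0.0073) and differed by -0.21 ± 0.15 in F5 and -0.23 ± 0.15 in OT-1, which did not pass. Commd9 and Prr5l passed in no line. B230118H07Rik starts 31 bases from Rag1 on the same strand, within its promoter window, and fell by 5.92 ± 0.49 in TG6, 4.66 ± 0.44 in F5 and 2.07 ± 0.44 in OT-1 (adjusted p = 1.1e-08, 1.8e-07 and 0.0013). Its exons share 80 bases with Rag1 on the same strand and 208 bases with Rag2 on the opposite strand, and the strand setting of the authors' counting was not given in the sources used here, so reads of these genes are uncertain there. Ldlrad3, whose start lies 536884 bases away, also fell in the 3 lines, with log2 differences of -4.56, -2.94 and -3.14 (limma, adjusted p = 5.5e-09, 8.8e-07 and 6.0e-07). Early B230118H07Rik levels were 917, 799 and 1015 in TG6, 225, 402 and 376 in F5 and 110.4, 121 and 155 in OT-1, in the same order of lines as Rag1.

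**Figure D2:**
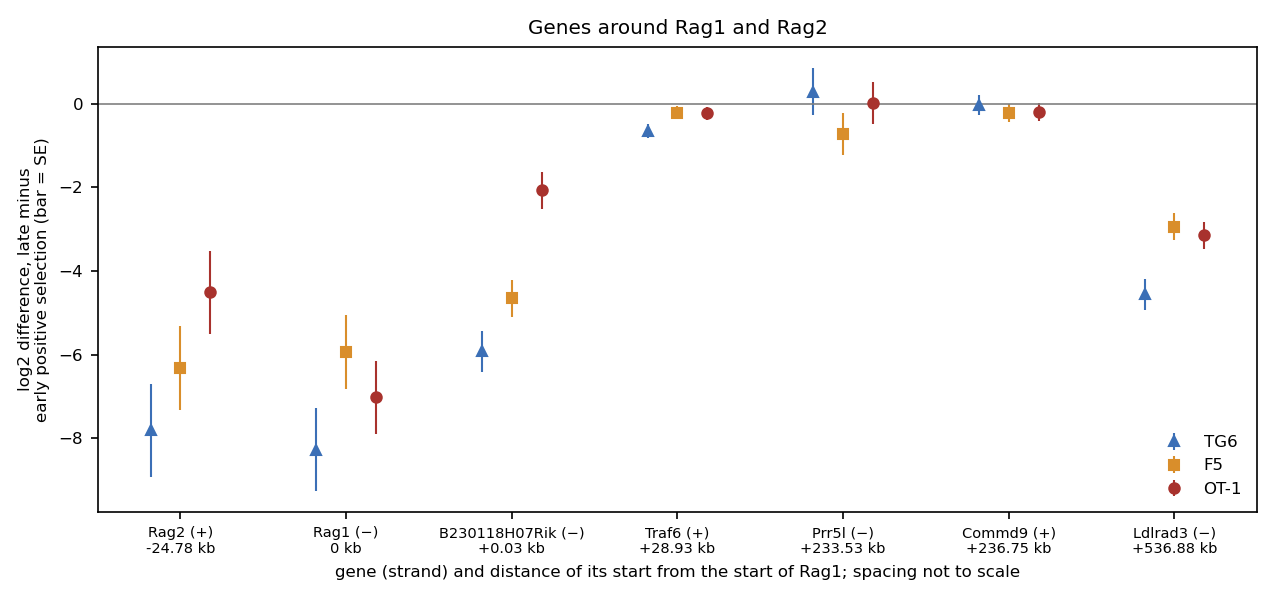
Log2 difference between late and early positive selection (late minus early) for 7 genes of the Rag region in each line, with bars of 1 standard error. Labels give the distance of each gene's start from the start of Rag1; Rag1, Rag2, B230118H07Rik and Ldlrad3 lie below -2 in every line, and Traf6, Commd9 and Prr5l lie above -1.

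Dntt fell less far than Rag1 and Rag2 and kept a higher share of its level. In TG6 it stood at 18095, 17728 and 20437 early, 2493 and 2213 late, and 1596, 1267 and 7845 at the mature stage. In F5 it stood at 15428, 18130 and 20017, then 3038, 5122 and 3875, then 3493, 8516 and 5628. In OT-1 it stood at 7107, 6856 and 9799, then 753, 622 and 1037, then 1446, 1104 and 2545. Early TG6 and F5 libraries overlapped and differed by -0.08 (95% interval -1.02 to 0.87), and every OT-1 library lay below both. OT-1 against TG6 was -1.26 ± 0.45 early and -1.58 ± 0.51 late (limma, adjusted p = 0.043 and 0.039), calls that were lost in 5 of 6 and 4 of 5 fits that left out 1 library. OT-1 against F5 was -2.32 ± 0.45 late and -1.79 ± 0.45 in mature CD8SP (limma, adjusted p = 0.00068 and 0.0072), and these calls held in all such fits. F5 against TG6 at the mature stage was 1.13 ± 0.45 (adjusted p = 0.17) and became 1.95 without TG6 mature CD8SP replicate 3 (adjusted p = 0.00025).

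Arpp21 had the pattern closest to Dntt among the 9 genes. The root mean square difference of their centred log2 group means over the 9 groups was 0.567. TG6 libraries held 7052, 7501 and 9892 normalised reads of Arpp21 early, 541 and 421 late and 461, 385.5 and 3494 at the mature stage. F5 libraries held 4364, 4147 and 5500, then 723.5, 929 and 749.5, then 726, 1758 and 1636. OT-1 libraries held 3434, 3418 and 3757, then 546, 485 and 587.5, then 623, 376 and 1127. The early levels were ordered TG6, F5, OT-1 without overlap, whereas at late positive selection F5 libraries lay above those of both other lines. Arpp21 was called in none of the 9 comparisons between lines, but without TG6 mature CD8SP replicate 3 the mature F5 against TG6 difference was 1.60 (limma, adjusted p = 0.0032). OT-1 against TG6 at the early stage was -1.19 ± 0.53 (adjusted p = 0.10) with the spread of all groups and passed with these groups alone (adjusted p = 0.00084). Fitted in the same way, F5 against TG6 at the early stage (-0.80, limma, adjusted p = 0.030) and OT-1 against F5 at the late stage (-0.56, adjusted p = 0.037) also passed. The falls to late positive selection were 4.07 ± 0.59, 2.54 ± 0.53 and 2.71 ± 0.53 in TG6, F5 and OT-1 (adjusted p = 1.8e-05, 0.0010 and 0.00061). Arpp21 shares 580 exon bases with the antisense transcript 2900079G21Rik, which stood at no more than 205, so that much of its reads is uncertain. 

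The replicates of these 4 genes moved together within groups. In 7 of the 9 groups the library highest in Rag1 was also highest in Rag2, Dntt and Arpp21, the exceptions being TG6 early and OT-1 late positive selection. In all 3 mature groups and in F5 and OT-1 late positive selection that library was also the one highest in Cd4. The share of cells from an earlier stage in a sorted population was not measured, and the part of Cd4-high cells in these values was not tested. The within-group SD was 1.36 for Rag2, 0.62 for Dntt and 0.72 for Arpp21, compared with 0.17 to 0.27 for Spo11, Plxnd1, Ets2 and Cd1d1 and a median of 0.30 over all symbols. Tdrd5 had an SD of 0.59.

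**Figure D3:**
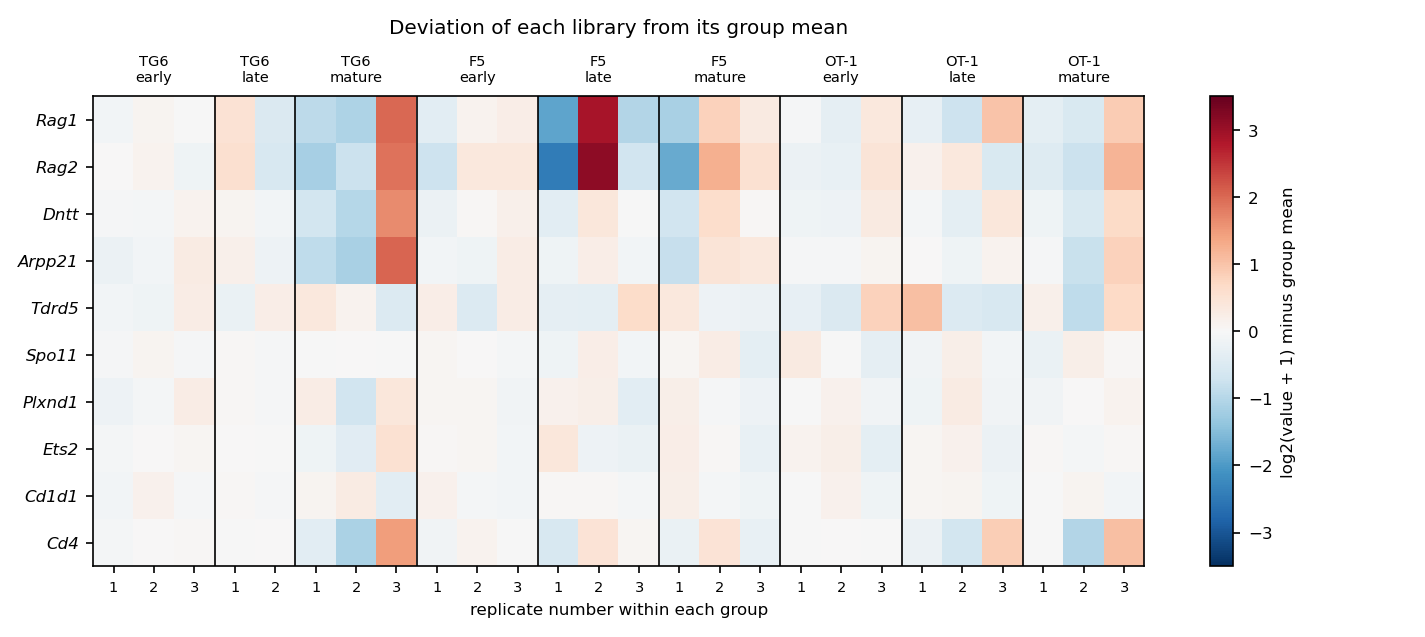
Deviation of each library from the mean of its group, in log2(value + 1), for the 9 genes and Cd4; columns are libraries, ordered by line and stage. TG6 mature CD8SP replicate 3 is high in Rag1, Rag2, Dntt, Arpp21 and Cd4 together, and the rows of Spo11, Plxnd1, Ets2 and Cd1d1 are pale throughout.

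Without TG6 mature CD8SP replicate 3, the share of the early level kept by TG6 at the mature stage dropped from 4.01 to 1.204% for Rag1, from 4.11 to 1.31% for Rag2, from 19.03 to 7.63% for Dntt and from 17.8 to 5.20% for Arpp21. For Spo11 the share was 10.1% either way. The early to mature falls of the 4 genes kept their calls without it, at -6.37, -6.22, -3.72 and -4.25.

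Of the 9 genes Tdrd5 had the largest difference between TG6 and OT-1 at early and late positive selection, with TG6 means 14.0 and 15.6 times those of OT-1. Early TG6 libraries held 929, 891 and 1184 normalised reads, F5 libraries 386, 237 and 396, and OT-1 libraries 53.6, 45.6 and 116. At late positive selection the values were 905 and 1243 in TG6, 546, 532 and 1064 in F5 and 125, 42.0 and 39.6 in OT-1. At the mature stage they were 232, 196 and 128 in TG6, 251, 169.8 and 167 in F5 and 39.5, 18.1 and 57.1 in OT-1. OT-1 lay below both other lines at every stage without overlap. OT-1 against TG6 was -3.90 ± 0.44, -4.14 ± 0.49 and -2.35 ± 0.44 at the early, late and mature stages (limma, adjusted p = 7.5e-07, 3.0e-06 and 0.0012), and OT-1 against F5 was -2.31, -3.49 and -2.44, each ± 0.44 (adjusted p = 0.00090, 4.0e-06 and 0.00041). F5 against TG6 was -1.58 ± 0.44 early (adjusted p = 0.031), a call lost in each fit that left out 1 of the 6 libraries, and did not pass later.

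Tdrd5 was called lower from late positive selection to mature CD8SP in TG6 and F5, and from early to late positive selection in no line. From early to late positive selection it differed by 0.10 (95% interval -0.92 to 1.11) in TG6, 1.03 (0.12 to 1.94, adjusted p = 0.088) in F5 and -0.14 (-1.05 to 0.76) in OT-1. From late positive selection to mature CD8SP it fell by 2.55 ± 0.49 in TG6 and by 1.81 ± 0.44 in F5 (limma, adjusted p = 0.00062 and 0.0046). In OT-1 the step was -0.76 ± 0.44 (adjusted p = 0.21).

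Spo11 had tight replicates. TG6 libraries held 2509, 2761 and 2494 early, 1100.0 and 1054 late and 256, 265 and 259.8 at the mature stage. F5 libraries held 1001, 966 and 912, then 775, 1004 and 804, then 265, 304 and 198. OT-1 libraries held 1169, 932 and 750.2, then 423, 528 and 433, then 84.9, 116 and 103. Early F5 and OT-1 libraries overlapped and differed by -0.04 (95% interval -0.37 to 0.30), and both lay below TG6, by 1.43 ± 0.16 for F5 and 1.47 ± 0.16 for OT-1 (limma, adjusted p = 2.6e-06 and 5.2e-07). At the mature stage the lines had regrouped. F5 against TG6 was -0.05 (-0.38 to 0.29), and OT-1 lay below TG6 by 1.36 ± 0.16 and below F5 by 1.31 ± 0.16 (adjusted p = 4.6e-06 and 4.8e-06). In F5 Spo11 kept 89.7% of its early level at late positive selection, against 41.6% in TG6 and 48.5% in OT-1.

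Of 17 other genes of meiosis and the piRNA pathway, 16 were in the table and 7 passed the filter on low values, as did 16372 of all 46517 symbols. The summed level of the 16 ran from 67.9 to 295 over the libraries, of which Piwil2, a piRNA-binding protein gene, made up 12.2 to 149. From early to late positive selection 2 of the 7 were called lower in each line (13.3% of symbols in TG6 and 14.0% in F5 and in OT-1), and 1 was called higher in F5 (12.7% of symbols).

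Plxnd1 changed its order of lines between stages. Early TG6 libraries held 10321, 11202 and 13969 normalised reads, F5 libraries 7237, 7207 and 6312, and OT-1 libraries 3960.1, 4413 and 3697. At late positive selection the values were 2243 and 2157 in TG6, 3977, 4096 and 2774.5 in F5 and 926, 1241 and 937.5 in OT-1. At the mature stage they were 735, 378.5 and 807.5 in TG6, 941, 801 and 723.5 in F5 and 1080.4, 1193 and 1289 in OT-1. OT-1 thus had the lowest libraries at the early and late stages and the highest at the mature stage, with no overlap with either line. At the mature stage 10.7% of symbols had every OT-1 library above every TG6 library, and 21.9% had every OT-1 library above every F5 library. OT-1 against TG6 was -1.55 ± 0.21 early, -1.10 ± 0.23 late and 0.96 ± 0.21 at the mature stage (limma, adjusted p = 8.2e-06, 0.0022 and 0.0046). With only those libraries in the fit, the mature difference did not pass. The mature difference between OT-1 and F5 was not called. It also passed in no fit that left out 1 library (limma, adjusted p = 0.062 to 0.21). From late positive selection to mature CD8SP Plxnd1 fell by 1.85 ± 0.23 in TG6 and 2.12 ± 0.21 in F5 (adjusted p = 6.9e-06 and 3.8e-07), while in OT-1 it differed by 0.21 (95% interval -0.22 to 0.64). It kept 5.41% of its early level at the mature stage in TG6, 11.9% in F5 and 29.5% in OT-1. Of 13 genes of plexins, neuropilins and semaphorins, 11 were tested, and in OT-1 against TG6 1 was called higher and 2 lower at the early stage (15.4 and 12.4% of symbols) and none at the mature stage (4.67 and 5.08%).

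Among the 9 genes Ets2 was the nearest to Plxnd1 in pattern (root mean square difference 0.549). Early values were 11968, 12529 and 13031 in TG6, 8893, 8995 and 8042 in F5 and 7221, 7679.9 and 5223 in OT-1. At late positive selection they were 3090.2 and 2990.4 in TG6, 7767, 5212 and 4961 in F5 and 3159, 3350.3 and 2641 in OT-1. F5 libraries lay above those of both other lines at that stage, and TG6 and OT-1 differed by less than 0.01 on the log2 scale (95% interval -0.45 to 0.45). F5 against TG6 was 0.95 ± 0.22 and OT-1 against F5 was -0.95 ± 0.19 (limma, adjusted p = 0.0099 and 0.0010). The first of these calls was lost without F5 late positive selection replicate 1 (0.74, adjusted p = 0.055) and without either TG6 replicate. At the mature stage the values were 1779, 1478 and 2861 in TG6, 2766.5, 2428 and 1965 in F5 and 2406, 2251 and 2429 in OT-1, with overlap between each pair of lines. Without TG6 mature CD8SP replicate 3, the highest of its group, OT-1 against TG6 was 0.54 there (limma, adjusted p = 0.026). From early to late positive selection Ets2 fell by 2.04 ± 0.22 in TG6, 0.56 ± 0.19 in F5 and 1.12 ± 0.19 in OT-1 (limma, adjusted p = 3.5e-07, 0.037 and 0.00019), but the F5 call was lost in 5 of 6 fits that left out 1 library, with differences of -0.61 to -0.44 (adjusted p = 0.055 to 0.16), and held only without F5 late positive selection replicate 1. Ets2 kept 24.3% of its early level at late positive selection in TG6, 69.2% in F5 and 45.5% in OT-1.

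Cd1d1 was called in no line from early to late positive selection and was called lower in every line from late positive selection to mature CD8SP. Early libraries held 1544, 1837 and 1605 in TG6, 1327, 1139 and 1122.5 in F5 and 1218.5, 1348 and 1103 in OT-1. Late libraries held 1619 and 1508 in TG6, 1495, 1502 and 1405 in F5 and 1317, 1347 and 1143.5 in OT-1. Mature libraries held 953, 1075 and 684 in TG6, 1083, 903 and 844 in F5 and 577, 624 and 539 in OT-1. From late positive selection to mature CD8SP it fell by 0.81 ± 0.15 in TG6, 0.64 ± 0.13 in F5 and 1.13 ± 0.13 in OT-1 (limma, adjusted p = 0.00046, 0.0014 and 7.0e-06). In F5 the early to late difference was 0.30 (adjusted p = 0.11) and the early to mature difference -0.35 (adjusted p = 0.079). With the replicate number as a block both passed, at adjusted p = 0.024 and 0.013. OT-1 lay below TG6 by 0.62 ± 0.13 and below F5 by 0.70 ± 0.13 at the mature stage, with no overlap (limma, adjusted p = 0.0051 and 0.00087). The call against TG6 was lost in 1 of 6 fits that left out 1 library (limma, adjusted p = 0.052). It was also lost with only the libraries of TG6 and OT-1 at that stage in the fit.

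Cd1d2, the nearly identical neighbour of Cd1d1 at a distance of 6053 bases, stood at 266 to 312 in early TG6 libraries, 157 to 165 in F5 and 92.7 to 135 in OT-1. It fell from early positive selection to mature CD8SP by 2.26 ± 0.28 in TG6, 1.17 ± 0.28 in F5 and 2.48 ± 0.28 in OT-1 (limma, adjusted p = 1.4e-06, 0.0046 and 1.0e-06). The ratio of Cd1d1 to Cd1d2 was 5.01 to 6.04 in early TG6 libraries and 19.1 to 38.9 in mature OT-1 libraries. Reads that match both copies are divided by the authors' counting model, so the split between them is uncertain. Of 8 genes of CD1d presentation and natural killer T cells 7 were tested, and Zbtb16, the transcription factor of natural killer T cells, was at 2.95 or less in every library.

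**Figure D4:**
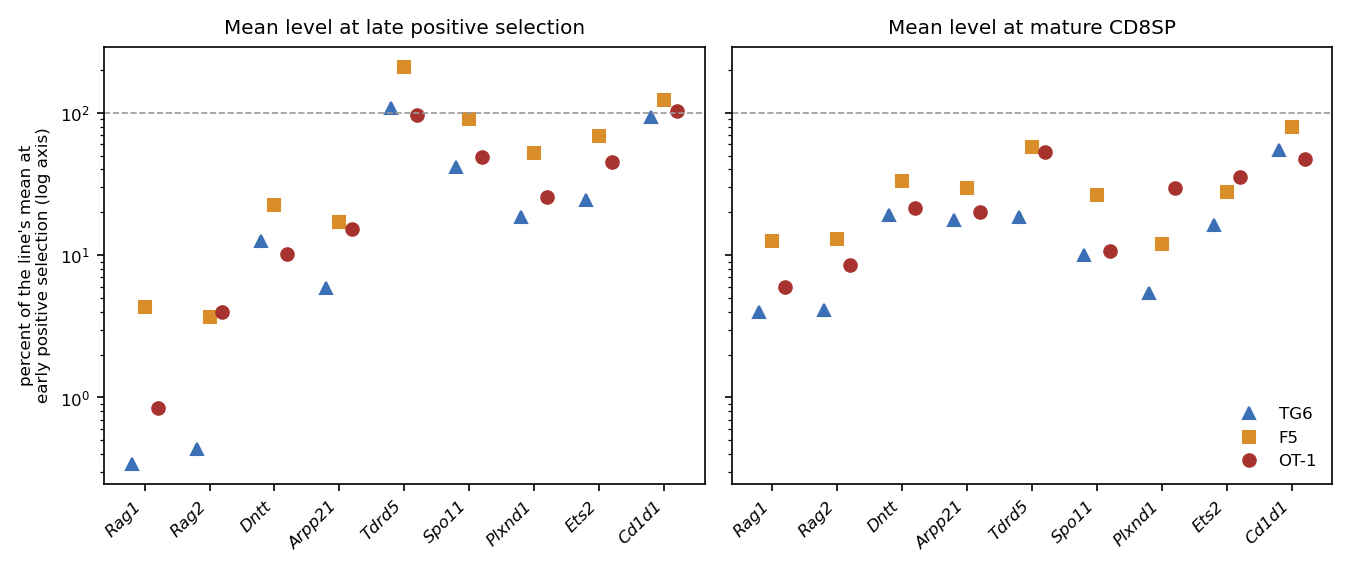
Mean level at late positive selection (left) and at mature CD8SP (right) as a percent of the same line's mean at early positive selection, on a log axis; the dashed line marks the early level. At late positive selection Rag1 is at 0.341% in TG6 and Tdrd5 at 107%, and at the mature stage Plxnd1 is at 5.41% in TG6 and 29.5% in OT-1.

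Across the 9 genes, OT-1 was lower than TG6 at early positive selection in 9 of 9, and 8 were called (12.4% of symbols were called lower). In the fits that left out 1 library 6 or 7 were called, with Dntt lost in 5 of 6 fits and Cd1d1 in 2 of 6. The median log2 difference was -1.47, against -0.00 over all symbols. Every early TG6 library lay above every early OT-1 library for all 9 genes, a separation seen for 21.6% of symbols. Every early F5 library lay above every OT-1 library for 7 of them (15.9%), and every early TG6 library above every F5 library for 8 (14.2%). In the late libraries 4 of 9 were called lower in OT-1 than in TG6 (6.21%), namely Dntt, Tdrd5, Spo11 and Plxnd1. At the mature stage 3 were called lower (5.08%), Tdrd5, Spo11 and Cd1d1, and Plxnd1 was called higher (4.67%). With only those libraries in the fit, Spo11 alone passed at the mature stage, and Plxnd1 did not (limma, adjusted p = 0.19). Against F5, OT-1 was called lower for 2 of 9 genes early (4.88%), 6 of 9 late (10.4%) and 5 of 9 at the mature stage (10.1%), the last being Rag2, Dntt, Tdrd5, Spo11 and Cd1d1. The Rag2 call (-2.81 ± 1.00, limma, adjusted p = 0.046) was lost in 4 of 6 fits that left out 1 library. F5 was called lower than TG6 for 4 of 9 early (3.35%), was called higher for Ets2 alone at late positive selection (1.75%), and was called for none of the 9 at the mature stage by limma (6.64% in either direction), where 1 of 9, Dntt, had an unadjusted p under 0.05. From late positive selection to mature CD8SP the genes called lower numbered 5 of 9 in TG6 (7.79%), 5 of 9 in F5 (8.31%) and 2 of 9 in OT-1 (10.4%). The Ets2 call in TG6 was lost in 4 of 5 fits that left out 1 library, and with only those TG6 libraries in the fit Tdrd5 and Spo11 alone passed. The early count for F5 against TG6 was 1 or 2 in place of 4 in every fit that left out 1 of the 6 libraries, with Spo11 called in each. The early count for OT-1 against F5 was 1 in place of 2, Tdrd5 alone, without F5 early positive selection replicate 2 or OT-1 early positive selection replicate 3. Fitted on the libraries of each pair alone, these counts were higher, at 7 for F5 against TG6 and 5 for OT-1 against F5. The shares of symbols in this paragraph are from the fit over all groups and are not the background of counts from other fits. These comparisons share libraries, so their counts are not independent of each other.

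**Figure D5:**
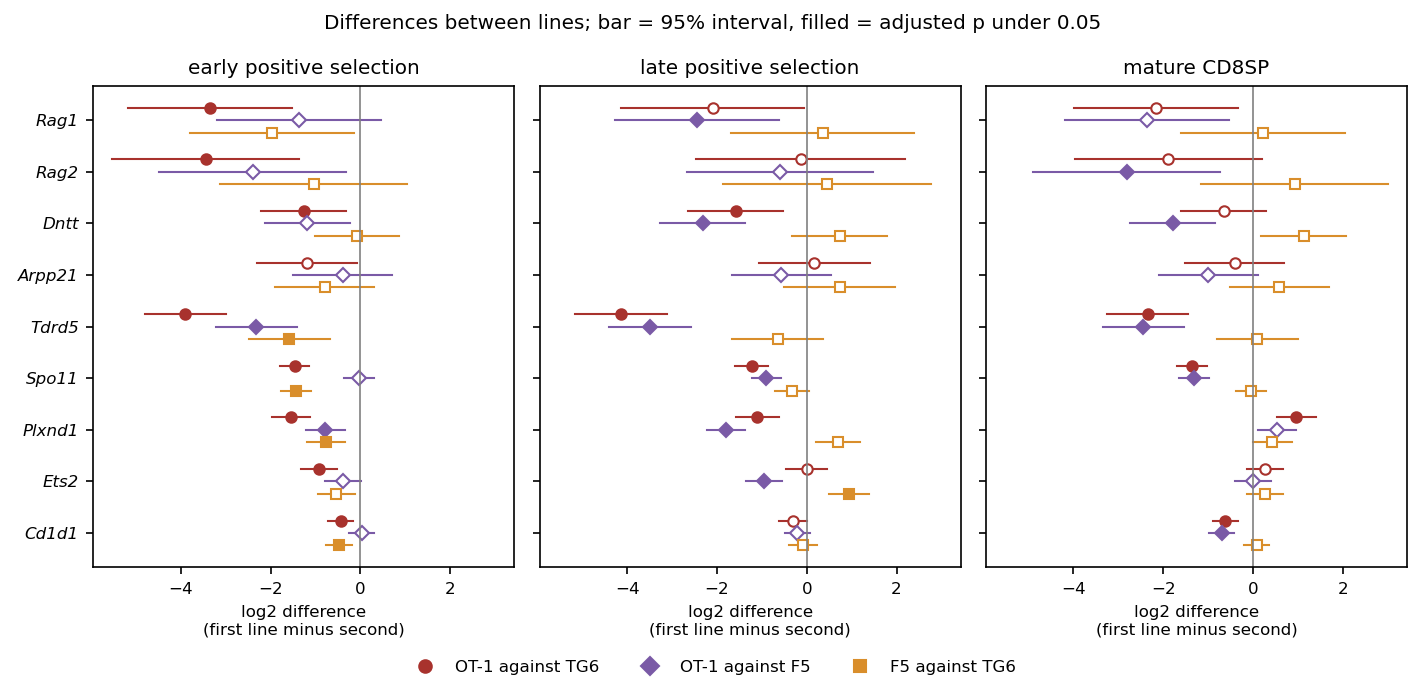
Log2 difference between lines (first line minus second) for each gene at the 3 stages, with 95% intervals from limma; filled symbols have an adjusted p under 0.05. All 27 symbols of the early panel but 1, Cd1d1 in OT-1 against F5, lie below 0, and Plxnd1 in the mature panel lies above 0 for each pair of lines.

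The size of the fall from early positive selection to mature CD8SP was itself compared between lines. The difference was called for Plxnd1 and Ets2 in OT-1 against TG6 (4.20% of symbols called in either direction), for Spo11 and Plxnd1 in OT-1 against F5 (1.64%) and for Spo11 and Plxnd1 in F5 against TG6 (4.40%). With only the groups compared, the Ets2 call and the Plxnd1 call in F5 against TG6 were lost. With 1 library left out, the Plxnd1 call was lost in 5 of 12 fits for OT-1 against F5 and in 3 of 12 for F5 against TG6. The level of Plxnd1 fell by 4.27 ± 0.21 in TG6, 3.08 ± 0.21 in F5 and 1.76 ± 0.21 in OT-1 on the log2 scale, and that of Spo11 fell by 3.31 ± 0.16, 1.92 ± 0.16 and 3.20 ± 0.16. With the replicate number as a block, Ets2 and Cd1d1 were called as well in F5 against TG6, at 0.80 and 0.55 (limma, adjusted p = 0.021 and 0.017), and Cd1d1 in OT-1 against F5, at -0.73 (adjusted p = 0.0060). The shares of symbols above are from the fit without the block and are not the background of these added calls. Without TG6 mature CD8SP replicate 3 the difference in the change was also called for Arpp21, at 2.40 in F5 against TG6 and 1.79 in OT-1 against TG6 (limma, adjusted p = 0.0022 and 0.018). In F5 against TG6 it was then called as well for Dntt, at 2.03, and for Ets2, at 1.08 (adjusted p = 0.0058 and 0.0069).

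Other genes moved with these differences. In the early libraries 6 of 12 stage markers were called higher and 4 lower when OT-1 was set against TG6 (15.4 and 12.4% of symbols), with sums of 62176 to 69887 in OT-1 libraries and 96264 to 104986 in TG6 libraries and none at 0. S1pr1, the egress receptor, stood at 1456 to 2303 in early OT-1 libraries and 69.6 to 100.6 in TG6, and Cd4 at 7980 to 8114 and 21209 to 22731; both were chosen after their values were seen. Of 6 myeloid markers 4 were called higher in early OT-1 than in early TG6 and 1 lower, with a median log2 difference of 2.66, and their sum was 225 to 326 in OT-1 and 254 to 349 in TG6 libraries. The part of these cells or of stage in the OT-1 values was not tested.

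The list of DNA end joining genes holds factors that seal the breaks made by the recombinase, together with the DNA-bending cofactors Hmgb1 and Hmgb2. Of 13 genes 12 were tested, and from early to late positive selection 6 were called lower and 2 higher in TG6 (13.3 and 12.1% of symbols), 6 lower and 1 higher in F5 (14.0 and 12.7%), and 5 lower and 2 higher in OT-1 (14.0 and 12.7%). Lig4, the ligase of this pathway, fell by 3.04 ± 0.44 in TG6, 2.48 ± 0.39 in F5 and 2.01 ± 0.39 in OT-1 (limma, adjusted p = 1.6e-05, 5.7e-05 and 0.00059). Lig4 was also the third nearest gene to Arpp21 in pattern, after Colq and Rnf157, at a root mean square difference of 0.395 over the 9 groups. The most abundant of the list were Hmgb1, Hmgb2 and Xrcc6. Early Xrcc6, a Ku subunit gene, stood at 6095 to 8146 in TG6 and 2473 to 3349 in OT-1. In TG6 mature CD8SP replicate 3 Xrcc6 was 4159, against 1331 and 1162 in the other replicates.

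Of 13 transcription factors known to act on the Rag genes, all were tested. From early positive selection to mature CD8SP 10 were called lower and 2 higher in TG6 (15.2 and 19.4% of symbols), 8 lower and 1 higher in F5 (8.79 and 10.8%), and 10 lower and 1 higher in OT-1 (10.5 and 12.8%). Between OT-1 and TG6 at the early stage, where Rag1 and Rag2 were lower, 3 of the 13 were called higher and 2 lower, near the 15.4 and 12.4% of all symbols, with a median log2 difference of -0.03. Tcf7, Satb1 and Ets1 had the highest levels of the list. Of the 11 genes that the study used to represent the preselection program, chosen from other microarray data and including Tdrd5, Spo11, Plxnd1 and Ets2, 10 were called lower in early OT-1 than in early TG6 libraries. Beyond those 4, Themis was lower by 0.92 ± 0.08, Wdr78 by 1.80 ± 0.27 and Slc6a19 by 3.11 ± 0.37 (limma, adjusted p = 3.3e-08, 3.4e-05 and 1.7e-06).

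The genes nearest to each of the 9 in pattern were found among 9906 other symbols by the root mean square difference of centred log2 group means. Nwd1 was nearest to both Rag1 (0.777) and Rag2 (0.787), followed by Dgkeos. Nwd1 averaged 1547 ± 233 in early TG6 libraries (SD, n = 3) and 12.6 ± 4.73 in late ones (n = 2). Dntt was nearest to Myzap (0.461), Prrt1 and Umad1.1. Tdrd5 had Gm38057 (0.560), Tle2 and Slc6a19, and Spo11 had Wdr78 (0.368), Cd1d2 and Pou6f1. Ets2 lay closest to Atl2 (0.181) and Cd1d1 to 2610008E11Rik (0.1004), while Plxnd1 had no gene closer than Ptms (0.477). Among the 9 genes themselves the closest pairs were Plxnd1 with Ets2, Dntt with Arpp21, Ets2 with Cd1d1 (0.703) and Rag1 with Rag2 (0.715).

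Levels were also divided by the joined length of all annotated exons of each gene. The length of the form expressed in these cells was not measured, so the order of genes is approximate. In early TG6 libraries Rag1 stood at 8269 and Dntt at 8182 normalised reads per kilobase, followed by Ets2 at 2164 and Plxnd1 at 1620, while Tdrd5 was lowest at 144. In mature OT-1 libraries Dntt was highest at 741 and Rag2 and Tdrd5 were lowest at 5.39 and 5.51, where Rag2 is RNA assigned to a disrupted locus.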

How the data were processed

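RNA was sequenced from 26 libraries of sorted thymocytes, 3 biological replicates per line and stage and 2 for TG6 late positive selection. Per the submitters' processing notes, the authors used Trimmomatic 0.32 for trimming, Bowtie2 2.3.2 for alignment on mm10 and RSEM 1.2.31 for estimated gene counts, which were scaled by DESeq2 size factors (DESeq2 version, annotation and strand setting not given in the sources used here). The deposited values are therefore a normalised signal per gene symbol, not raw counts. Only 42.4 to 44.2% of values above 0 lay within 0.01 of a whole number of steps, a step being the most common value of that library. Count models were therefore not used, and the depth of each library before normalisation was not estimated. All columns were assigned to samples from the labels (0 unmapped). The names of the 2 TG6 late positive selection columns differ by 1 character from the sample titles and were matched by hand on line, stage letter and number.

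Of 46517 symbols, the 16372 that reached 10 in 2 or more libraries were fitted as log2(value + 1) with 9 group means in limma 3.58.1 (R 4.3.3, 17 residual degrees of freedom, trended prior). Log2 differences of low genes come out too small because of the added 1. P-values are two-sided and Benjamini-Hochberg adjusted over all symbols within each of 21 comparisons, and called under 0.05. The fit was tested on simulated data. The members and gene lists were chosen with earlier results of these data known. Named genes were the 9 members, Cd1d2, the 3 genes of each list with the highest mean, the neighbours of Rag1 and Rag2, the study's preselection genes, and the 3 symbols (mean of at least 100) nearest to each member in pattern; others are marked in the text. Exon lengths, positions and overlaps came from GENCODE vM21 and promoter windows from RefSeq, both on GRCm38.

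Replicate numbers recur across the stages of a line in the labels. The deviations of same-numbered F5 libraries correlated in all 9 pairs (r = 0.106 to 0.34). The main fit held no block, also for F5, and the replicate block is given as an alternative where it changed a call. In OT-1 5 of 9 pairs and in TG6 2 of 7 exceeded 0.1. Between lines the same-numbered libraries had a median r of -0.00254, and 2 of 75 pairs exceeded 0.1. Alternatives were a pseudocount of 0.1 or 5, no filter, a mean of at least 50, equal totals, quantile normalisation, no trend in the prior, only the groups compared, a replicate block and each library left out. The block was the number within a line for stages and changes, and the number across lines for comparisons between lines.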

Additional observations from a re-analysis of the deposited data

Results flagged for a closer look

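For 3 of the 9 genes the size of the fall from early positive selection to mature CD8SP differed between lines by a limma test of the difference itself. For Plxnd1 the log2 change was 2.51 higher in OT-1 than in TG6 (adjusted p = 2.2e-05), 1.32 higher in OT-1 than in F5 (adjusted p = 0.022) and 1.19 higher in F5 than in TG6 (adjusted p = 0.020), so its loss was smallest in OT-1. For Spo11 the change was 1.38 higher in F5 than in TG6 (adjusted p = 0.00059), and in OT-1 against F5 it differed by -1.28 (adjusted p = 0.0032). For Ets2 the change was 1.19 higher in OT-1 than in TG6 (adjusted p = 0.013). With only the groups compared, the Plxnd1 difference between F5 and TG6 and the Ets2 difference no longer passed (limma, adjusted p = 0.12 and 0.050). With the replicate number as a block, the change also differed in F5 against TG6 for Ets2 (0.80, adjusted p = 0.021) and Cd1d1 (0.55, adjusted p = 0.017) and in OT-1 against F5 for Cd1d1 (-0.73, adjusted p = 0.0060). With 1 library left out, the Plxnd1 call was lost in 5 of 12 fits for OT-1 against F5 (adjusted p up to 0.067) and in 3 of 12 for F5 against TG6 (adjusted p up to 0.063). Without TG6 mature CD8SP replicate 3, which stood apart, the change also differed for Arpp21 in F5 against TG6 (2.40, adjusted p = 0.0022) and in OT-1 against TG6 (1.79, adjusted p = 0.018), and in F5 against TG6 for Dntt (2.03, adjusted p = 0.0058) and Ets2 (1.08, adjusted p = 0.0069).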

How the results depend on the processing

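No gene reversed a called direction under any alternative, and 77 of the 100 called pairs of gene and comparison, out of 189 pairs, kept their call in every fit that left out 1 library, while 23 lost it in at least 1 and 12 others gained one. Counts of the 9 genes called moved most when only the groups compared were fitted: to 1 in OT-1 against TG6 at mature CD8SP, 5 in OT-1 against F5 and 7 in F5 against TG6 at early positive selection, 0 in F5 against TG6 at late positive selection, 2 in TG6 from late positive selection to mature CD8SP, and 1 each for the changes in OT-1 against TG6 and F5 against TG6. The replicate block raised the count for the change in F5 against TG6 from 2 to 4, with Ets2 (0.80, adjusted p = 0.021) and Cd1d1 (0.55, adjusted p = 0.017) added. It also gave calls for Dntt from late to mature in OT-1 (1.02, adjusted p = 0.018), Rag1 in OT-1 against F5 at the mature stage (-2.37, adjusted p = 0.047) and the Cd1d1 change in OT-1 against F5 (-0.73, adjusted p = 0.0060). In a comparison between lines the block joins same-numbered libraries of different lines, so this Rag1 call is not a paired result. With 1 library left out, the counts ran from 1 to 2 in F5 against TG6 early, 0 to 2 late and 0 to 2 at the mature stage, 6 to 7 in OT-1 against TG6 early, 1 to 2 in OT-1 against F5 early, 4 to 7 in F5 from early to mature, 1 to 3 for the change in OT-1 against F5 and 1 to 5 for that in F5 against TG6. The 2 of the mature F5 against TG6 comparison were Dntt and Arpp21 without TG6 mature CD8SP replicate 3. Where TG6 late positive selection is reduced to 1 library, it is assumed to vary like the other groups. The shares of all symbols called in these other fits are not given, so the moves cannot be read as particular to the 9 genes. The cause of these moves was not tested.

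Scaling each library to the same total moved the median of all symbols to -0.11 in early and -0.13 in late OT-1 against TG6, and the share of calls that were higher from 55.3 to 40.9% and from 60.1 to 38.9%. That share moved from 47.9 to 30.5% in mature OT-1 against TG6, from 61.5 to 43.7, 56.8 to 46.1 and 56.9 to 34.4% in OT-1 against F5 at the 3 stages, from 65.1 to 49.8% in TG6 from late positive selection to mature CD8SP, and from 49.8 to 39.4% for the change in OT-1 against F5. It rose from 32.2 to 42.2% in mature F5 against TG6 and from 30.7 to 40.1% for the change in F5 against TG6. Under quantile normalisation it moved to 44.8% in mature OT-1 against F5, to 49.4% in TG6 and from 57.5 to 46.2% in OT-1 from late positive selection to mature CD8SP. The depth of each library before normalisation was not estimated, and Rag2 at late positive selection rests on few reads.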
